A study of Mus musculus with 12 samples.

Results

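Trh encodes the precursor of thyrotropin-releasing hormone. Its level was read in 12 RNA-seq libraries from mouse embryos carrying Eftud2 alleles altered in neural crest cells; Eftud2 encodes a GTPase of the U5 particle of the spliceosome. Trh is 1 of the 24421 genes counted, and it was selected on these same counts, which were low in homozygous libraries at embryonic day 9.5 (E9.5) but not at E9.0. All genotype and stage values of Trh itself are therefore given as descriptions, without a test. Per the labels, all embryos were of strain C57Bl/6 and untreated, and the 4 groups of 3 libraries were, for each of E9.0 and E9.5, heterozygous controls (genotype Eftud2+/-) and homozygous mutants (genotype Eftud2-/-). Every embryo carried at least 1 altered Eftud2 allele, so no library was wild type. The labels name neither the Cre driver nor the number of embryos in a library, they give no somite numbers, and they mark replicates only by number, so p-values measure the spread between these libraries, which may be technical.

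The TRH precursor is cut by prohormone convertases at pairs of basic residues, trimmed by a carboxypeptidase, closed at its first residue to pyroglutamate by glutaminyl cyclase and amidated at its end to give a tripeptide. In the adult, TRH neurons of the hypothalamus drive thyrotropin release from the pituitary, and TRH also occurs elsewhere in the brain as a neuromodulator. The tripeptide acts through TRH receptors and is broken down by a membrane pyroglutamyl peptidase.

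In GENCODE M21, on the GRCm38 build, Trh (ENSMUSG00000005892.4) lies on the minus strand at chr6:92242061-92244650 and has 3 exons, the last 2 of which hold its 768 coding bases. No annotated gene overlaps it. The nearest neighbours are Rbsn, 27135 bases away on the left, and the pseudogene Gm44803, 26766 bases away on the right. The coding sequence of the GENCODE transcript holds 5 copies of the unit from which the peptide is cut, all on exon 3. They are shown because the gene's product is this repeat: the 12 bases in capitals are the codons of glutamine, histidine, proline and glycine, and the 6 bases on each side, in lower case, code for the basic pairs at which the precursor is cleaved.
unit 1: aaacgcCAGCATCCGGGCaaaagg
unit 2: aaacgaCAGCACCCTGGCcgacgt
unit 3: aagcggCAGCACCCTGGCaggcga
unit 4: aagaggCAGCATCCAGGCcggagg
unit 5: aaacgtCAGCATCCTGGCaaaagg
All 5 units had a basic pair on both sides, and their cores had 4 different spellings. The counts are per gene, so they do not show which part of the transcript the reads came from.

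Library totals ran from 13914543 to 31172708 counts, with 17311 to 19783 genes detected. Ribosomal RNA (Rn45s) made up 37.4% of replicate 1 of the heterozygous E9.0 group, 6.05% to 16.2% of the other E9.0 libraries and 4.40% to 5.90% of those of E9.5. Levels are given as CPM, counts relative to a library's total after TMM scaling, whose factor was 0.664 in that library and 0.924 to 1.11 in the others. Eftud2 was at 275 to 302 CPM in heterozygous and 232 to 236 CPM in homozygous E9.0 libraries. At E9.5 it was at 248 to 264 against 221 to 226 CPM. The labelled genotypes did not overlap at either stage, as 8.2% (E9.0) and 9.47% (E9.5) of tested genes did not in this direction. At E9.0 this rests on TMM scaling, since with total counts alone heterozygous replicate 1 was below the homozygous libraries. The Eftud2 difference passed the edgeR test at E9.0 (log2 fold change -0.29, adjusted p = 0.0193) and not at E9.5 (-0.19, adjusted p = 0.0906). The E9.0 call was lost without heterozygous replicate 1, homozygous replicate 1 or homozygous replicate 3 (adjusted p of 0.0601 to 0.0713) and with total counts alone (log2 fold change -0.08, adjusted p = 0.751) or a fit of the compared groups only (-0.28, 0.141). On the tissue the labels differ, since neural crest cells are the source, cranial nerve ganglia the tissue, and heads the material of the protocol. Markers of brain, heart muscle, endothelium and primitive blood were all counted. In such mixed tissue, fewer cells of a type and less RNA per cell cannot be told apart.

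Trh was a gene of moderate level in 3 of the 4 groups and low in the fourth. At E9.0, the heterozygous libraries had 8.44, 8.58 and 11.8 CPM (115, 160 and 274 counts), and the homozygous libraries had 6.76, 8.87 and 7.90 CPM (90, 155 and 117 counts). The genotypes overlapped at this stage, with means of 9.60 ± 1.89 and 7.85 ± 1.06 CPM (SD, n = 3 each). At E9.5, the heterozygous libraries had 6.83, 14.1 and 7.81 CPM (224, 482 and 220 counts), and the homozygous libraries had 1.11, 1.26 and 0.712 CPM (33, 41 and 19 counts). These groups stood apart, as 9.47% of tested genes did in this direction, and the lowest heterozygous library was 5.42 times the highest homozygous one. The group means at this stage came to 9.59 ± 3.97 CPM and 1.03 ± 0.283 CPM (SD, n = 3 in either group). The lowest library, homozygous E9.5 replicate 3, had an exact Poisson 95% interval of 0.429 to 1.11 CPM, which covers counting error only.

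**Figure D1:**
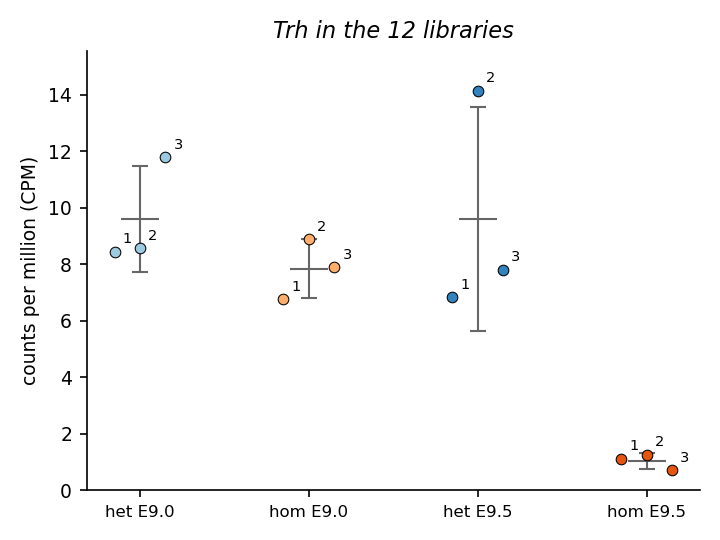
Trh level in CPM (linear axis from 0) for each library, with replicate numbers beside the points and the group mean ± SD as bars. The 3 homozygous E9.5 libraries sit between 0.712 and 1.26 CPM, and the other 9 between 6.76 and 14.1.

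In order of mean level, heterozygous E9.0 and heterozygous E9.5 were level, homozygous E9.0 was next and within their spread, and homozygous E9.5 was last. The heterozygous mean was 9.33 times the homozygous mean at E9.5 (log2 ratio -3.22) and 1.22 times at E9.0 (log2 ratio -0.29). Between the stages, the heterozygous mean did not move (log2 ratio 0.00 from E9.0 to E9.5), whereas the homozygous mean at E9.0 was 7.63 times that at E9.5. The heterozygous stage ratio took either sign with the scaling and with the libraries used, as 0.35 with total counts alone and -0.39 without heterozygous E9.5 replicate 2. That replicate was the high one, and the coefficient of variation of its group was 41.4%. Without it, the E9.5 log2 ratio of homozygous to heterozygous was -2.83.

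Per kilobase of exon, which allows levels of different genes to be compared, Trh reached 6.93 CPM per kb in both heterozygous groups and 5.67 in homozygous E9.0 libraries. It lay above 74.8%, 74.7% and 71.8% of the 21946 genes with a count and a GENCODE length in heterozygous E9.0, heterozygous E9.5 and homozygous E9.0 libraries. In homozygous E9.5 libraries it was at 0.742 CPM per kb, above 47% of those genes.

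Among the enzymes that would process the precursor, Pcsk1, Pcsk2, Cpe, Pam, Qpct and Qpctl were tested. Of these, 1 was called at E9.5 (edgeR), where 1.89% of all tested genes were called and 0.702% were called lower. Pcsk2, prohormone convertase 2, had 1.34, 1.47 and 1.14 CPM in heterozygous and 0.607, 0.430 and 0.375 CPM in homozygous E9.5 libraries. The groups did not overlap, and Pcsk2 fell (log2 fold change -1.47 ± 0.26 SE, edgeR quasi-likelihood test with Benjamini-Hochberg adjustment, adjusted p = 0.00768). The call held with each E9.5 library left out in turn (adjusted p of at most 0.0485). At E9.0, Pcsk2 had 0.660, 1.02 and 1.03 CPM in heterozygous and 0.751, 0.916 and 0.743 CPM in homozygous libraries, which overlapped (log2 fold change -0.19, edgeR adjusted p = 0.83). The difference between these 2 effects did not pass the interaction test (edgeR adjusted p = 0.35), nor did that of any other tested axis gene besides Trh, which was not tested; 0.0675% of all genes passed it, 0.0608% with the lower and 0.00675% with the higher effect at E9.5. In the annotation, 2 antisense genes overlap Pcsk2 in the annotation, and the strand setting of the counting is not given in the sources used here, so reads of these genes cannot be told apart.

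Pcsk1, prohormone convertase 1, was at 2.29, 1.76 and 2.06 CPM in heterozygous and 1.62, 1.66 and 1.27 CPM in homozygous E9.5 libraries, which did not overlap, and it did not pass the test (log2 fold change -0.42, edgeR adjusted p = 0.365). Cpe, the carboxypeptidase, was between 38.2 and 45.3 CPM in all 12 libraries. Pam, the amidating enzyme, had 101 to 117 CPM in heterozygous and 124 to 140 CPM in homozygous E9.5 libraries (log2 fold change 0.27, edgeR adjusted p = 0.105). Of the glutaminyl cyclases, Qpctl ranged from 5.32 to 7.91 CPM over all libraries and Qpct from 0.270 to 3.17 CPM, and neither was called between genotypes.

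The receptor genes Trhr and Trhr2, the gene of the degrading enzyme, Trhde, and the pituitary hormone genes Tshb, Cga and Prl were too low to be tested, with no more than 8 counts in any library. Tshr, the thyrotropin receptor, and the thyroid hormone receptors Thra and Thrb were tested and were not called between genotypes. Of the 14 members of the TRH axis tested besides Trh, 0 were called higher and 1 lower at E9.5, where 1.19% and 0.702% of the 14810 tested genes were called higher and lower (edgeR). Either way, 1.89% of all genes were called. Their median log2 fold change was -0.02, beside 0.00 for all tested genes. At E9.5, 3 of the 14 (Pcsk1, Pcsk2 and Scg5) were lower in every homozygous library and 3 (Pam, Prcp and Tshr) were higher, where 9.47% and 11.4% of all genes did not overlap in these directions. At E9.0, 0 of 14 were called by edgeR, where 0.432% of all tested genes were called higher and 0.155% lower, 0.587% in all, and 1969 genes had an unadjusted p under 0.05. Pgpep1 was higher in every homozygous E9.0 library, as were 9.07% of all genes, and 0 of the 14 were lower in every one, beside 8.2% of all genes.

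**Figure D2:**
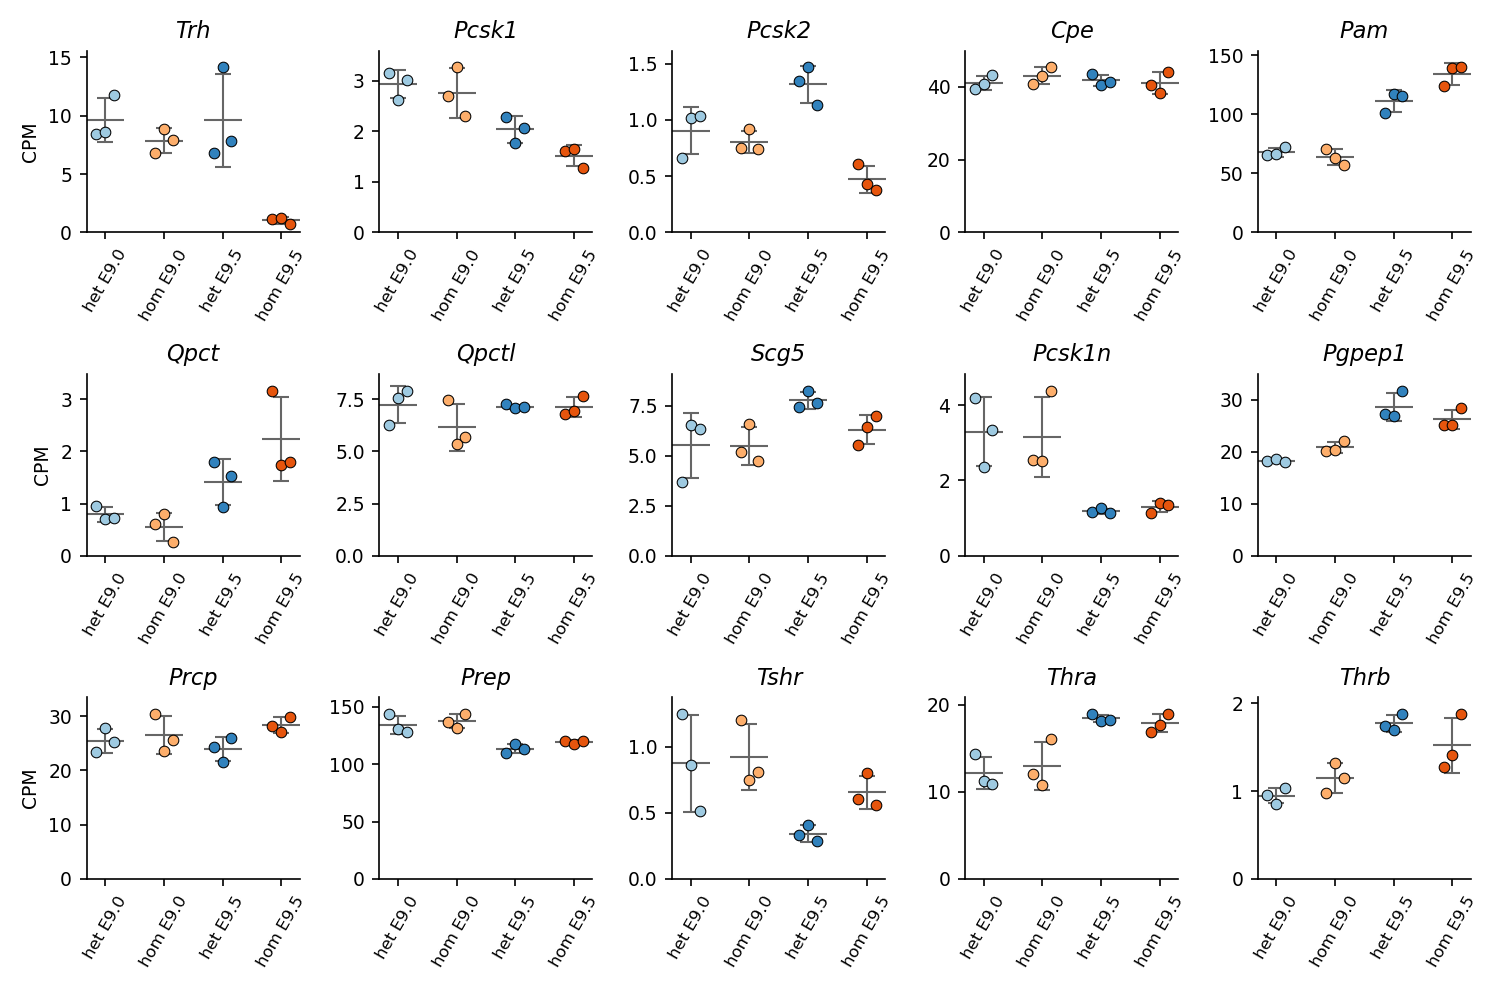
CPM (linear axes from 0, scaled for each gene) of Trh and the 14 other tested members of the axis in each library, with the group mean ± SD as bars. Trh, Pcsk1, Pcsk2 and Scg5 have homozygous E9.5 libraries below every heterozygous library of that stage, while Cpe stays between 38.2 and 45.3 CPM.

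Stage was compared in the heterozygous libraries, where the Trh mean was level. From E9.0 to E9.5, 5 of the 14 rose and 4 fell by the edgeR test, where 19.2% of all tested genes rose and 16% fell, 35.2% in all. The genes that rose were Pam, Scg5, Pgpep1, Thra and Thrb, with log2 fold changes of 0.47 (Scg5, the chaperone of convertase 2) to 0.89 (Thrb). Those that fell were Pcsk1, Pcsk1n, Prep and Tshr, from -0.24 (Prep, a prolyl endopeptidase) to -1.45 (Pcsk1n, an inhibitor of convertase 1). Scaling by total counts alone moved the median of all genes by 0.37 in this comparison and raised the share of higher calls from 54.4% to 96.4%. With it Prep turned to 0.14, and Pcsk1 (log2 fold change -0.15, edgeR adjusted p = 0.601) and Tshr (-0.87, 0.0551) were no longer called. RLE factors ended the call of Scg5 (edgeR adjusted p = 0.0502), and so did leaving out any 1 heterozygous E9.5 library or replicate 1 of heterozygous E9.0 (0.0775 to 0.188). The Pcsk1 call was lost without any 1 of the heterozygous libraries except E9.5 replicate 1 (0.0502 to 0.13), and that of Tshr without heterozygous E9.0 replicate 1 (0.08). DESeq2 (adjusted p = 0.059) and edgeR with no count filter (0.0856) also ended the Pcsk1 call. A fit of the compared groups only ended the calls of Pcsk1 (0.0526) and Scg5 (0.0696). The other 6 kept their calls with each library left out.

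Genes of other neuropeptides were set beside Trh. Of 14 tested genes of such precursors and granule proteins, 0 were called higher and 1 lower at E9.5 (edgeR), where 1.19% and 0.702% of all tested genes were, and the median log2 fold change was -0.30. The called gene was Sst, the somatostatin precursor, with 1.68, 1.64 and 1.99 CPM in heterozygous and 0.910, 0.767 and 0.862 CPM in homozygous E9.5 libraries (log2 fold change -1.06 ± 0.25 SE, edgeR adjusted p = 0.0426). Its call was lost with each of the 6 E9.5 libraries left out, at adjusted p of 0.081 to 0.189, and with total counts alone (0.0731), DESeq2 (0.0945) or a replicate block (0.0654). Sst had at most 0.0734 CPM at E9.0, whereas Trh was already at its full heterozygous level then. Cck, the cholecystokinin precursor, had 2.91 to 3.63 CPM in heterozygous and 3.15 to 3.94 CPM in homozygous E9.5 libraries, and the groups overlapped.

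Trh was next set beside genes of brain regions. Of 14 tested regulators of hypothalamus identity, 0 fell and 1 rose at E9.5 (edgeR; 0.702% and 1.19% of all tested genes), with a median log2 fold change of 0.27. The one that rose was Rax, an eye and hypothalamus homeobox gene, at 4.17, 3.64 and 4.97 CPM in heterozygous and 8.19, 6.05 and 7.42 CPM in homozygous libraries (log2 fold change 0.76 ± 0.16 SE, edgeR adjusted p = 0.0178). Its call was lost without heterozygous replicate 2, homozygous replicate 1 or homozygous replicate 3 of E9.5, at adjusted p of 0.0614 to 0.0782. Sim1, a factor needed for the hypothalamic neurons that make TRH, ranged from 1.28 to 3.16 CPM over all libraries and its genotypes overlapped at both stages, and Otp, another, was not tested at no more than 6 counts. Of 16 forebrain and eye genes, 0 were called at either stage by edgeR, where 1.89% of all tested genes were called at E9.5 and 0.587% at E9.0, so a count of 0 says little about them.

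Of 15 tested genes of the midbrain and its boundary with the hindbrain, 6 fell and 0 rose at E9.5 (edgeR), where 0.702% of all tested genes fell and 1.19% rose. The median log2 fold change of the 15 was -0.43, and 2 of the 9 that were not called had positive values. At E9.0, 0 of them were called, beside 0.587% of all genes, and their median was -0.33. En2, an engrailed homeobox gene of this territory, had 24.3, 49.7 and 30.6 CPM in heterozygous and 1.04, 1.81 and 1.27 CPM in homozygous E9.5 libraries. En2 fell (log2 fold change -4.64 ± 0.39 SE, edgeR adjusted p = 0.000695), as did its paralog En1 (log2 fold change -3.88 ± 0.50 SE, edgeR adjusted p = 0.00585). Neither effect was shown to differ between stages (interaction test, edgeR adjusted p = 0.133 for En2 and 0.247 for En1). Cnpy1, an FGF pathway gene of the boundary, fell from 1.19, 5.16 and 2.52 CPM to 0.0337, 0.0921 and 0.150 CPM (edgeR adjusted p = 0.00108). In these homozygous libraries, 3 counts correspond to 0.0921 to 0.112 CPM. Cnpy1 was thus near the floor there, and the size of its fall is uncertain. Wnt1, the WNT ligand of the boundary, fell too (log2 fold change -0.93, edgeR adjusted p = 0.00913).

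These 4 calls held with each E9.5 library left out. The other 2, Pax5 (log2 fold change -2.44, edgeR adjusted p = 0.0163) and Fgf18 (log2 fold change -0.87, edgeR adjusted p = 0.0205), did not. Pax5 was lost without homozygous E9.5 replicate 1 (adjusted p = 0.0682) or replicate 3 (adjusted p = 0.0731), and with no count filter (0.0577). With 1 E9.5 library left out, the log2 fold change ran from -2.75 to -1.79 for Pax5 and from -4.49 to -3.45 for En1. For Cnpy1 it ran from -5.42 to -4.265. Fgf18 was lost without heterozygous replicate 2 (adjusted p = 0.0909), homozygous replicate 1 (adjusted p = 0.0517) or homozygous replicate 2 (adjusted p = 0.124). At E9.0, En2 was at 22.4 to 35.3 CPM in heterozygous and 7.22 to 12.5 CPM in homozygous libraries, which did not overlap, as 8.2% of tested genes did not in this direction, and it did not pass the test (log2 fold change -1.58, edgeR adjusted p = 0.0907). Trh overlapped at that stage. Opposite-strand genes overlap En2 and Pax5, so part of their counts may not be theirs.

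Beside the same shares of all genes, 0 of 17 hindbrain genes fell at E9.5 and 1 rose. This was Cyp26c1, a retinoic acid-degrading enzyme (log2 fold change 0.85 ± 0.08 SE, edgeR adjusted p = 7.49e-05). Of 15 neural progenitor genes, 3 fell at E9.5 by edgeR, where 0.702% of all genes did, namely Pax3, Pax7 and Fabp7. Pax3 held with each E9.5 library left out, whereas Pax7 (without heterozygous replicate 2 or homozygous replicate 1 or 3, adjusted p of 0.0569 to 0.0789) and Fabp7 (without heterozygous replicate 2 or any 1 homozygous library, 0.0542 to 0.119) did not. Sox2, the general neural progenitor factor, was at 161 to 199 CPM in heterozygous and 177 to 182 CPM in homozygous E9.5 libraries, so its genotypes overlapped.

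Of 24 early neuron genes, 4 fell and 1 rose at E9.5 (edgeR; 0.702% and 1.19% of all tested genes), 19 did not pass, and 6 had positive fold changes, with a median log2 fold change of -0.27. Tubb3, a neuronal tubulin, had 83.0, 103 and 97.2 CPM in heterozygous and 59.1, 55.8 and 60.5 CPM in homozygous E9.5 libraries (log2 fold change -0.69 ± 0.07 SE, edgeR adjusted p = 0.000172). Dll3, a Notch pathway gene (log2 fold change -0.78, edgeR adjusted p = 0.00596), and Ina, a neurofilament gene (-0.79, 0.0107), also fell, and these 3 calls held with each E9.5 library left out. In heterozygous libraries, 19 of the 24 neuron genes rose from E9.0 to E9.5 and 0 fell (edgeR; 19.2% and 16% of all tested genes), while the Trh mean stayed level. Among 14 tested genes of cranial ganglion neurons, 2 fell and 1 rose at E9.5 (edgeR), and 10 had positive fold changes. Each of these calls was lost without at least 1 library. At E9.0, 0 were called, beside 0.587% of all genes, and 12 had positive fold changes. Their summed level was higher in homozygous libraries at both stages. It was 117 to 125 against 134 to 135 CPM at E9.0 and 137.7 to 140.5 against 152 to 159 CPM at E9.5.

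**Figure D3:**
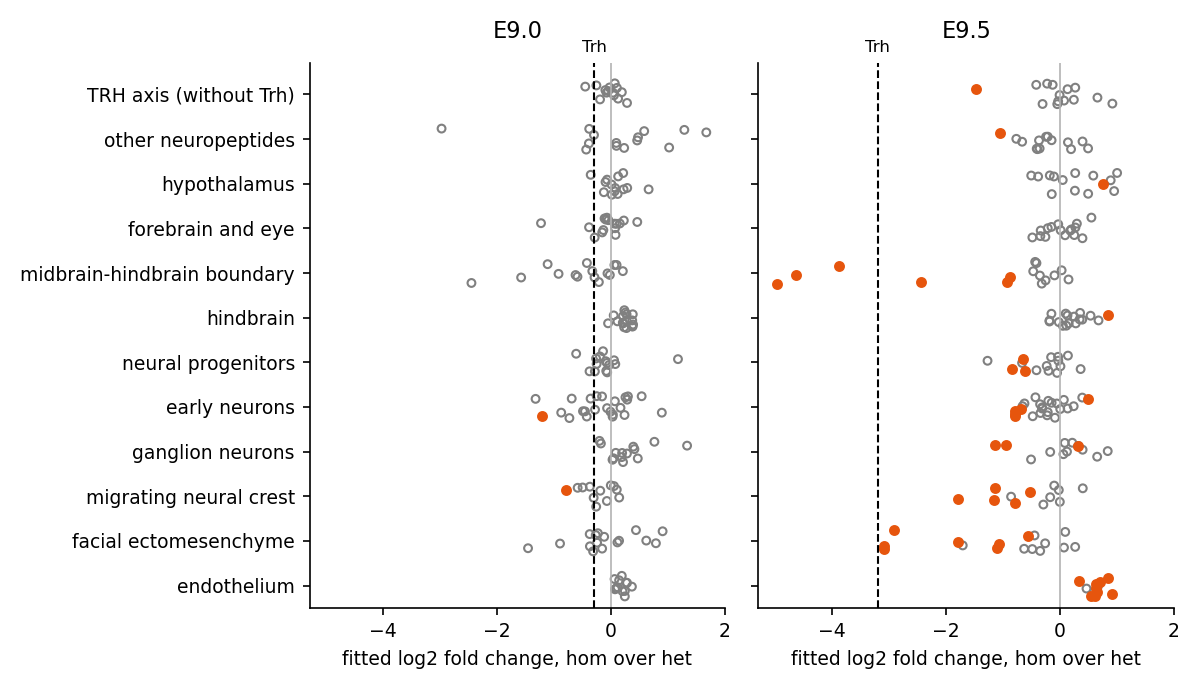
Fitted log2 fold change of homozygous over heterozygous libraries at E9.0 (left) and E9.5 (right) for the tested genes of 12 lists, with filled points for genes at an edgeR adjusted p under 0.05. The dashed line is the value of Trh; at E9.5, Cnpy1, En2 and En1 lie beyond it and Pcsk2 is the only filled point of the TRH axis.

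Within each library, Trh was also expressed against the summed CPM of these lists. Per 1000 CPM of early neuron genes, Trh was at 15.1 to 27.5 CPM in heterozygous and 1.67 to 3.20 CPM in homozygous E9.5 libraries, a 7.62-fold difference of means. Per 1000 CPM of hypothalamus genes, the difference was 10.1-fold. Per 1000 CPM of midbrain-hindbrain boundary genes, it was 53.7 to 70.4 CPM against 7.73 to 13.7 CPM, a 5.15-fold difference. The genotypes stood apart in each of these at E9.5 and overlapped in each at E9.0. Trh was picked for this pattern in the same libraries, so it is built into these ratios and nothing is read from it. The boundary genes themselves summed to between 127 and 200.8 CPM in heterozygous and between 81.4 and 92.8 CPM in homozygous E9.5 libraries. The neuron genes summed to between 452 and 514 CPM and between 393 and 427 CPM in the same libraries. These sums did not overlap at E9.0 either, at 162 to 206 against 136 to 158 CPM for boundary genes and 246 to 253 against 228 to 239.9 CPM for neuron genes.

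Genes were then ranked by how closely their log2 CPM, centred on the gene's own mean, followed that of Trh over the 12 libraries, as the root mean square (RMS) of the difference. Of 14273 genes ranked, the 10 nearest were Tal2 (RMS 0.454), Pax5 (0.481), AA465934 (0.592), Dmbx1 (0.687), Hes3 (0.732), En2 (0.745), 1700019D03Rik (0.755), Snord87 (0.799), En1 (0.805) and Kis2 (0.829), against a median of 1.36 over all ranked genes. The measure uses the libraries for which Trh was picked, so a low level in homozygous E9.5 libraries is built into it and nothing is read from that. Their Pearson correlations with Trh were at least 0.791 and their Spearman correlations at least 0.699, over 12 libraries that share the 4 groups. Tal2 was among the nearest 10 in all 16 other ways of ranking, Pax5 and Dmbx1 in 15, AA465934 in 14, and Kis2 in 6. Hes3, 1700019D03Rik, Snord87 and Kis2 were not called at E9.5 (edgeR adjusted p of 0.0665 to 0.259). At E9.0, where Trh overlapped, AA465934 was called lower (log2 fold change -1.21, edgeR adjusted p = 0.0348), as 0.155% of all tested genes were. That call held in 1 of 6 fits with an E9.0 library left out. Snord87 lies within Snhg6, AA465934 holds a small nucleolar RNA and Kis2 a microRNA on the same strand, so their counts are uncertain.

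Tal2, a bHLH factor of the midbrain, followed Trh in nearly equal measure outside the homozygous E9.5 libraries. Tal2 ranked nearest over these same libraries, so this closeness is built in. Trh was picked for its low homozygous E9.5 values, so nothing is read from the difference there. Tal2 had 9.39, 10.5 and 12.5 CPM in heterozygous and 7.29, 8.24 and 7.97 CPM in homozygous E9.0 libraries. At E9.5 it had 6.00, 14.5 and 7.38 CPM in heterozygous and 2.16, 2.27 and 1.91 CPM in homozygous libraries. The ratio of Trh to Tal2 was 0.82 to 0.942 and 0.928 to 1.08 in the E9.0 groups, 0.972 to 1.14 in heterozygous E9.5 libraries and 0.373 to 0.554 in homozygous E9.5 libraries. Dmbx1, a homeobox gene of diencephalon and midbrain, had 10.2, 19.3 and 11.5 CPM in heterozygous and 2.97, 4.30 and 4.05 CPM in homozygous E9.5 libraries. The ratio of Trh to En2 was higher in homozygous libraries at both stages, at 0.331 to 0.384 against 0.708 to 1.09 at E9.0 and 0.256 to 0.285 against 0.559 to 1.06 at E9.5.

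**Figure D4:**
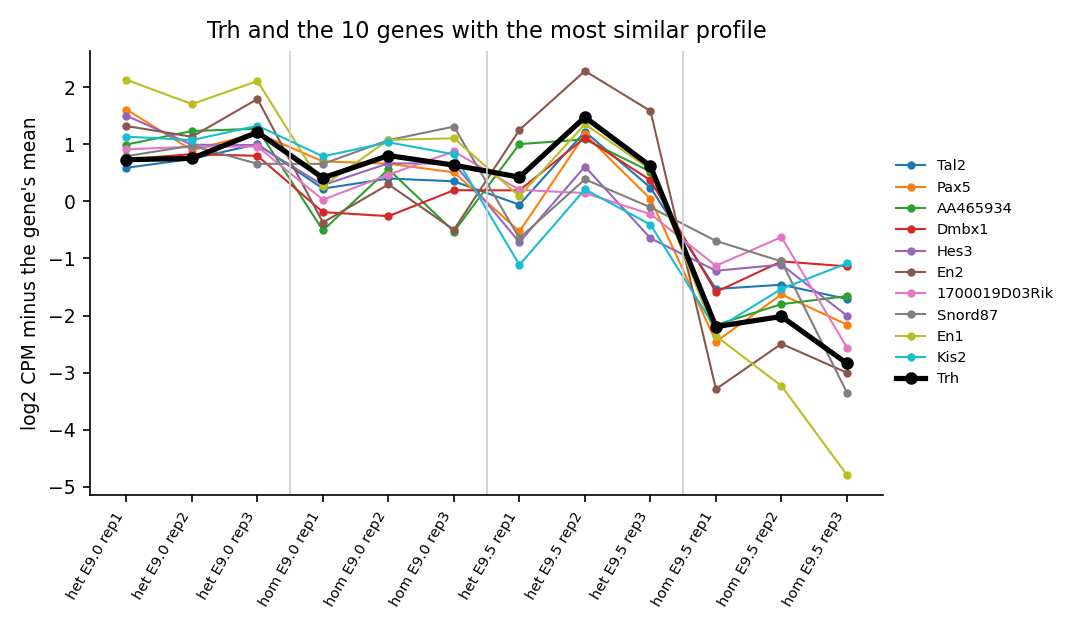
Log2 CPM of Trh (black) and its 10 nearest genes in each library, each minus the gene's own mean; lines only join the points of a gene. Tal2 and Pax5 lie closest to Trh, and En1 and En2 fall below it in all 3 homozygous E9.5 libraries.

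The 100 genes most like Trh, 0.701% of those ranked, are described by list. The ranking uses the homozygous E9.5 values for which Trh was picked, so lists with low values there are favoured and nothing is read from the counts. They held 6 of the 15 boundary genes, 5 of 12 migrating neural crest genes, 3 of 16 facial ectomesenchyme genes, 2 of 14 ranked neural progenitor genes, and 0 of 23 early neuron, 0 of 14 hypothalamus, 0 of 16 forebrain and 0 of 17 hindbrain genes. Of the TRH axis, 1 of 14 was there, Pcsk2 at rank 34, and of 13 ranked genes of other neuropeptides 1 was, the tachykinin precursor Tac1 at rank 91. The crest genes include Sox10, a glial and crest factor, at rank 12. At E9.5, 5 of 12 crest genes and 7 of 16 ectomesenchyme genes fell and 0 rose (edgeR), where 0.702% of all tested genes fell and 1.19% rose. At E9.0, 1 crest gene fell, the crest factor Tfap2b (log2 fold change -0.78, edgeR adjusted p = 0.000773), where 0.155% of all genes did, and with total counts alone it was not called (-0.59, 0.109). With each E9.5 library left out, 3 of the 5 and 5 of the 7 held. The others were Sox10 (lost without heterozygous or homozygous replicate 2, adjusted p of 0.0555 and 0.0606), Foxd3 (homozygous replicate 2 or 3, 0.0867 and 0.0518), Dlx6 (homozygous replicate 1 or 3, 0.0682 and 0.073) and Alx1 (any but heterozygous replicate 2, 0.074 to 0.143). Of those that held, Crabp1 (0.0856) and Msx1 (0.0635) were not called with total counts alone, nor was Crabp1 with a fit of the compared groups only (0.0549).

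Summed levels of endothelial and of pharyngeal endoderm genes were higher in homozygous libraries, without overlap, at both stages. At E9.0, 0 genes of these 2 lists were called (edgeR; 0.587% of all tested genes were), but 12 of 12 endothelial and 14 of 14 pharyngeal endoderm genes had positive fold changes. Their summed levels did not overlap there, at 299 to 321 against 354 to 364 CPM and 221 to 248 against 272 to 287 CPM. At E9.5, of 12 endothelial genes, 9 rose and 0 fell (edgeR; 1.19% and 0.702% of all tested genes), with a median log2 fold change of 0.63, and their summed level was 192 to 273 CPM in heterozygous and 347 to 390 CPM in homozygous libraries. The calls of Kdr, Cdh5, Tek and Flt1 held with each E9.5 library left out, and the other 5 were lost without homozygous replicate 1 and, for some, without other libraries (adjusted p of at most 0.147). With total counts alone, the calls of Kdr (adjusted p = 0.0568), Tie1, Egfl7 and Ramp2 were lost, and with a fit of the compared groups only, those of Kdr (0.124), Tie1, Egfl7, Sox18 and Ramp2. Of 14 pharyngeal endoderm genes, 4 rose and 0 fell, and their summed level was 188 to 208 CPM against 234 to 289.7 CPM. These 4 calls were each lost without at least 1 library, Pax9 only without homozygous replicate 1 (adjusted p = 0.0578). Total counts alone also ended those of Epcam (0.611), Nkx2-3 (0.0993) and Hhex (0.135), and a fit of the compared groups only ended all 4 (0.0512 to 0.108). None of the genes of either list was at 0 in all libraries. Other lists also had higher sums in homozygous libraries. Hindbrain genes had 359 to 415 against 435 to 460 CPM at E9.0. Surface ectoderm and placode genes had 444 to 494 against 516 to 545 CPM at E9.0. Floor plate and notochord genes had 185 to 235 against 240 to 271 CPM at E9.5. Sums of heart muscle and of erythroid genes overlapped at both stages, although 10 of 10 heart muscle genes had positive fold changes at each. The part of all these lists in the differences of Trh, boundary, neuron and crest genes was not tested.

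The spread of Trh among the heterozygous E9.5 replicates came from 1 high library. Replicate 2 was above the mean of replicates 1 and 3 by 0.95 on the log2 scale for Trh, a value reached by 0.578% of 14534 genes, whose median was 0.00. It was above by 1.12 for Tal2, 1.39 for Pax5, 1.01 for En1, 0.86 for En2 and 0.83 for Dmbx1. Of the 10 nearest genes, 8 had the same order of the 3 replicates as Trh, and AA465934 and 1700019D03Rik did not. These genes were ranked with these libraries, so nothing is read from their order. All 15 boundary genes were higher in replicate 2, with a median of 0.52, and so were 15 of 16 forebrain genes (median 0.39) and 12 of 15 neural progenitor genes (median 0.27). Facial ectomesenchyme genes were higher for 2 of 16 (median -0.48), endothelial genes for 0 of 12 (median -0.50) and hypothalamus genes for 5 of 14 (median -0.19). Early neuron genes were higher for 14 of 24, with a median of 0.06. The part of these list differences in the Trh values was not tested.

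**Figure D5:**
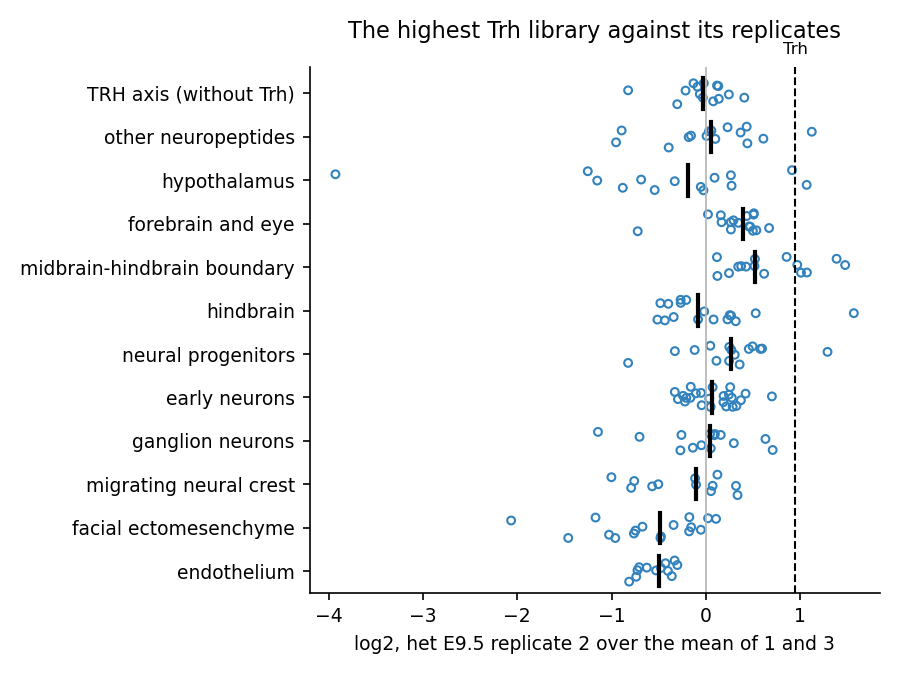
Log2 ratio of heterozygous E9.5 replicate 2 to the mean of replicates 1 and 3 for the genes of 12 lists (points), with each list's median as a bar and the value of Trh as a dashed line at 0.95. Boundary genes sit to the right of 0 and endothelial genes to the left of it.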

How the data were processed

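The authors deposited 1 table of raw counts per gene symbol for 12 libraries; cutadapt, STAR, featureCounts, MultiQC and the mm10 build are named, with no versions, per the submitters' processing notes. The annotation and strand setting are not given in the sources used here. Counts were analysed with edgeR 4.0.16 in R 4.3.3: filterByExpr left 14810 of 24421 genes (the rest held at most 0.0778% of a library), libraries were scaled by TMM, and 1 quasi-likelihood model with a mean per group was fitted to all 12 libraries. P-values were two-sided and Benjamini-Hochberg adjusted over all tested genes, with a threshold of 0.05. Trh and its likeness ranking (prior count 2, genes with a mean of at least 10 counts) are descriptions. The gene and the 18 gene lists were chosen with earlier results of these data known. Named genes were Trh, Eftud2, tested axis members, the 10 nearest genes and list members past the threshold; Sim1, Otp, Sox2, Cck, Tac1 and the untested axis members (Trhr, Trhr2, Trhde, Tshb, Cga, Prl) fall outside this rule and were named after their values were seen. Some list members past the threshold are counted but not reported here by name. Replicates differed by more than sampling noise, and none was merged. The model and the ranking were also run on simulated data, whose outcome is not reported here. Alternatives were other scalings, DESeq2 1.42.0, other count filters, fits of the compared groups alone, a replicate block, other measures of likeness and leaving out each library.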

Additional observations from a re-analysis of the deposited data

Results flagged for a closer look

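For 4 facial ectomesenchyme genes, the genotype effect differed between the stages by an interaction test (edgeR quasi-likelihood test, adjusted over all genes), which called 0.0675% of tested genes; Trh was picked for such a difference and was not tested. The log2 difference, E9.5 minus E9.0, was -3.82 for Barx1 (edgeR adjusted p = 0.0301), -2.72 for Dlx1 (edgeR adjusted p = 0.00349), -3.88 for Lhx8 (edgeR adjusted p = 0.0181) and -0.668 for Msx1 (edgeR adjusted p = 0.0198). The Dlx1 call held with each of the 12 libraries left out; those of Lhx8, Msx1 and Barx1 held in 10, 7 and 3 of the 12. Lhx8 was lost without homozygous E9.0 or E9.5 replicate 3 (adjusted p = 0.0968 and 0.0626 by edgeR). Msx1 was lost without heterozygous E9.0 replicate 2, heterozygous E9.5 replicate 1 or any homozygous E9.5 library (0.0586 to 0.0916), and Barx1 without any E9.0 or homozygous E9.5 library (0.0615 to 0.238). Msx1 was also lost with total counts alone (0.136) and Barx1 with no count filter (0.0946). An antisense gene overlaps Dlx1.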

How the results depend on the processing

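The log2 ratio of Trh at E9.5 stayed between -2.81 (ratio of medians) and -3.41 (without heterozygous replicate 1) in 13 alternatives, and that at E9.0 between -0.11 and -0.39. Genes called by edgeR at E9.5 numbered 280, against 123 with total counts alone, 448 with DESeq2 and 133 to 252 with 1 library left out; the share of higher calls was 62.9%, and 47.2% with total counts. At E9.0 there were 87, against 216 with DESeq2 and 38 to 86 with 1 library left out; total counts alone moved the median of all genes by 0.19 and the higher share from 73.6% to 96.2%. Stage differences numbered 10, against 76 with DESeq2 and 1 to 16 with 1 library left out. The nearest 10 genes shared 5 with a Pearson ranking, 1 with a Spearman ranking and 6 to 9 with 1 library left out. The cause of these shifts was not tested. Prep turned to 0.1411 between stages with total counts alone. Same-numbered libraries of a stage correlated at 0.0321 to 0.129 across genotypes, and differently numbered ones at -0.2285 to 0.1897. With 3 libraries per group, this cannot decide whether the numbers pair them. With a replicate block, calls were 248, 69, 9 and 5019 and the Trh ratios -3.18, -0.32 and -0.05. The block ended the E9.5 calls of Alx1 (edgeR adjusted p = 0.06335), Epcam (0.0598) and Sst (0.0654). With only the groups compared, the calls of Pax5 (adjusted p = 0.102), Pax3 (0.0649), Pax7 (0.0786), Foxd3 (0.0624) and Alx1 (0.139), among others, were lost, and with total counts alone those of Fabp7 (0.132) and Alx1 (0.0626). No alternative reversed a genotype call of a named gene. With 19 to 41 counts in homozygous E9.5 libraries, counting error limits the Trh fold. So does the spread of the heterozygous E9.5 libraries, with a coefficient of variation of 41.4%.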
